A study of Danio rerio with 12 samples.

Results

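Zebrafish larvae exposed to 30 mg/L OBS were compared with larvae exposed to 20 mg/L PFOS, using 6 of the 12 poly(A) RNA-seq libraries of the study. The 3 OBS libraries (OBS30, replicates 1, 3 and 4) and the 3 PFOS libraries (PFOS20, replicates 2, 3 and 4) were taken by their labelled treatment. Every library was made from total RNA of whole wild-type larvae at 4 days post fertilisation. The other 6 libraries, 3 of untreated larvae (control) and 3 at 20 mg/L OBS (OBS20), are given as reference levels. The sources used here do not give the start and length of exposure, the number of larvae pooled or whether replicates came from separate clutches, so p-values measure the spread between these samples, which may be technical. The doses differ by design, and an effect of the compound and an effect of its dose cannot be told apart here.

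PFOS (perfluorooctane sulfonate) is a surfactant with a fully fluorinated carbon chain, which persists in the environment, binds serum proteins and collects in liver and blood. OBS (sodium p-perfluorous nonenoxybenzenesulfonate) is a fluorinated surfactant used in its place, for example in firefighting foams, and it carries a benzene ring between its fluorinated chain and its sulfonate group. In injured larval skin and fin, damaged cells release signals that induce AP-1 transcription factors, interleukin 1, chemokines and matrix metalloproteinases, and neutrophils and macrophages follow. Both exposure groups showed such genes above control, and the comparison asks which genes still differed between the groups.

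Levels are TPM, the share of a library that a transcript takes once its length is allowed for. Differences are OBS30 minus PFOS20 on log2(TPM + 1), a scale that understates differences of low genes, with the standard error from limma over 3 against 3 libraries. The test covered genes and assembled loci that reached 1 TPM in 3 or more of these 6 libraries, and a gene was called where its p, adjusted over all of them by the Benjamini-Hochberg method, was below 0.05. Depth is unknown because no counts were used. Median TPM was 1.90 to 2.33 in OBS30 and 1.57 to 2.04 in PFOS20, and mitochondrial transcripts took 8.37% to 8.86% of TPM in OBS30 and 9.95% to 10.6% in PFOS20. Markers of whole larvae were present in all 6 libraries, with lens cryaa at 20.0 TPM or more, liver fabp10a at 751 or more, muscle mylpfa at 1625 or more, neuronal elavl3 at 34.3 or more, red cell hbae3 at 548 or more and pancreas prss59.1 at 54.4 or more.

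Of 28170 genes and loci tested, 2562 differed between OBS30 and PFOS20, which is 9.09%. In OBS30 1771 were higher (6.29%) and 791 lower (2.81%), and 719 and 273 of these differed by 2-fold or more. The counts of called list members below are to be read beside these shares of 6.29% and 2.81%. In 25.1% of those tested every OBS30 library was above every PFOS20 library, and in 9.94% every one was below (35% either way). The median difference of all genes was 0.16, so list medians below are also given relative to it. The higher genes made up 69.1% of the called, against 51.7% after quantile normalisation and 50.2% after median-of-ratios scaling, which brought the median to -0.01 and 0.00. Counts depended on single libraries: the higher and lower genes numbered 788 and 442 without OBS30 replicate 1, 94 and 131 without OBS30 replicate 3, and 74 and 116 without OBS30 replicate 4. They numbered 219 and 233 without PFOS20 replicate 2, 101 and 112 without PFOS20 replicate 3, and 3287 and 763 without PFOS20 replicate 4. Each of these fits has 3 residual degrees of freedom in place of 4. Of 183 called genes named by rule, 39 were called in all 6 of these fits, and those described below are marked as called in every leave-out. Any other gene named by rule and called here lost its call in at least 1 of these fits, whether or not that is repeated beside it.

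**Figure D1:**
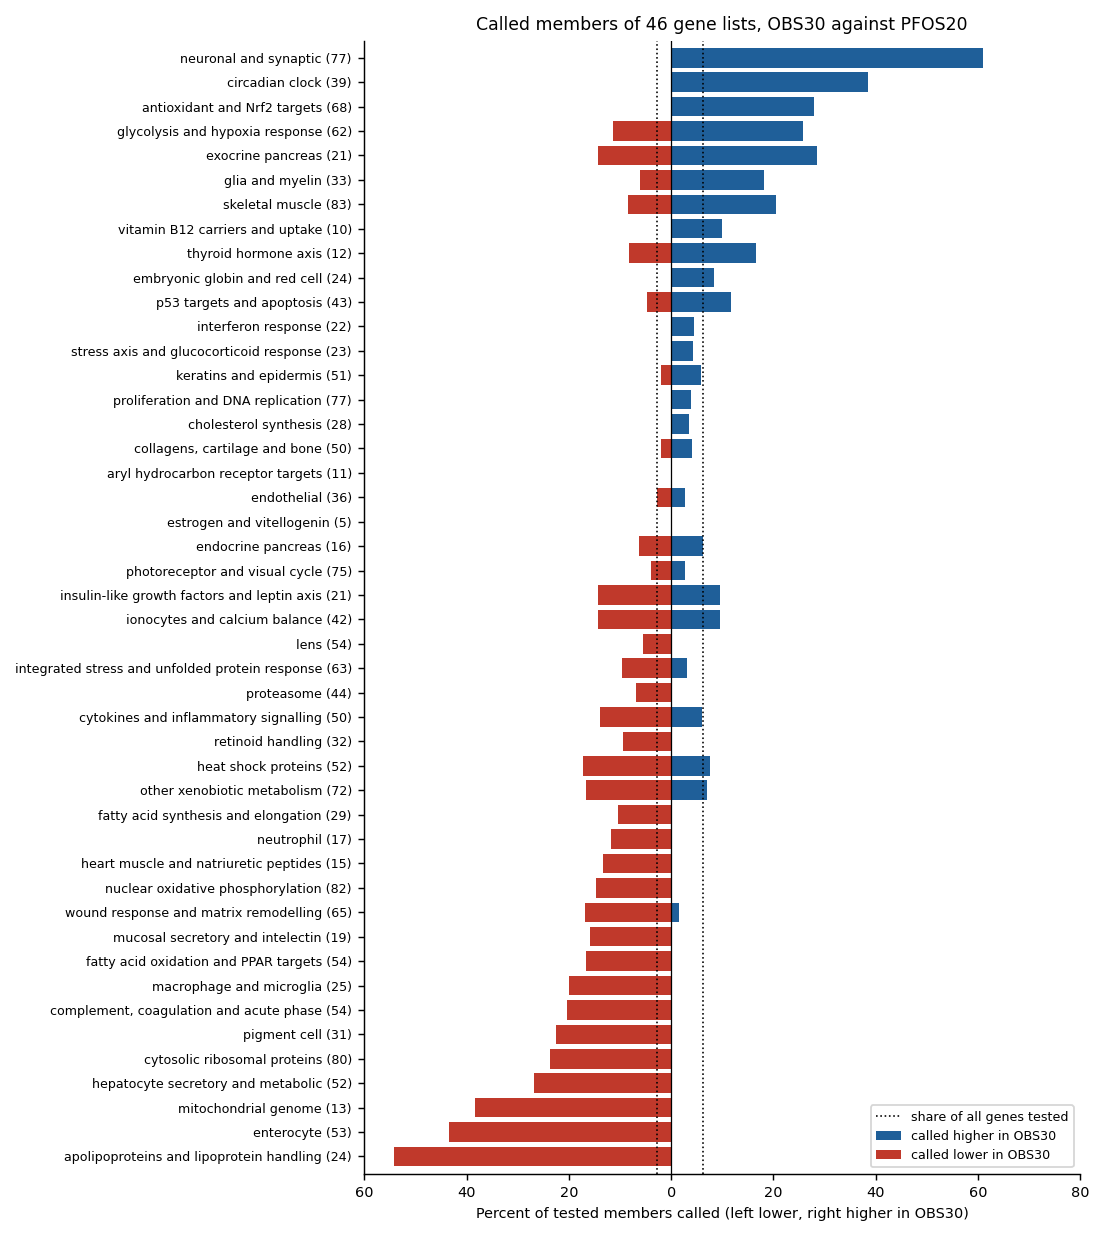
Percent of tested members called in OBS30 against PFOS20 for each of 46 gene lists (horizontal axis, higher in OBS30 to the right, lower to the left), with the number of members tested in parentheses. Dotted lines mark the shares over all genes, 6.29% higher and 2.81% lower. The neuronal list reaches farthest to the right and the apolipoprotein list farthest to the left.

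The wound and inflammatory response was present in both groups, and part of it was stronger with PFOS. Il1b, the secreted interleukin that starts inflammation in injured tissue, stood at 15.01, 5.35 and 3.21 TPM in the OBS30 libraries and 36.4, 36.1 and 30.4 in the PFOS20 libraries, against 0.880, 1.55 and 0.600 in control. All 3 OBS30 libraries lay between control and PFOS20, with OBS30 replicate 1 the closest to PFOS20. The difference was -2.22 ± 0.45 (adjusted p = 0.034). Mmp9, a metalloproteinase that cuts basement membrane, was 47.9, 40.01 and 31.0 TPM in OBS30 and 94.9, 100.4 and 73.2 in PFOS20, a difference of -1.16 ± 0.19 (adjusted p = 0.023). Lepb, a leptin induced in regenerating zebrafish fin and heart, was 22.4, 23.8 and 12.4 and 40.9, 42.4 and 40.6 TPM, a difference of -1.09 ± 0.23 (adjusted p = 0.037). In both genes the groups did not overlap, and every exposed library exceeded every control library.

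The neutrophil attractants cxcl8b.1 and cxcl18b were lower in OBS30. Cxcl8b.1 was 10.8, 9.75 and 6.82 TPM against 29.9, 33.1 and 20.2, and cxcl18b differed by -1.09. Also lower were the AP-1 subunits junba (-1.03) and junbb (-0.98) and cish (-0.97), a feedback inhibitor of cytokine receptors. Cxcl19 was higher in OBS30 (1.34 ± 0.30), at 4.76, 1.66 and 3.22 TPM against 0.550, 0.790 and 0.430. The calls of il1b, mmp9, junba, junbb, cxcl8b.1 and cxcl18b held without OBS30 replicate 1 or PFOS20 replicate 4 and were lost without any one of the other 4 libraries, with adjusted p up to 0.12, 0.085, 0.12, 0.13, 0.077 and 0.082. That of cxcl19 held only without OBS30 replicate 3 (adjusted p up to 0.14 otherwise), that of cish was lost without OBS30 replicate 3 or 4 or PFOS20 replicate 3 (up to 0.11), and that of lepb held only without PFOS20 replicate 4 (adjusted p up to 0.13 otherwise).

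A second set of wound genes did not pass the test between the groups. Cxcl8a, another interleukin 8 gene, was 8.57, 3.91 and 4.44 TPM in OBS30 and 5.57, 6.04 and 6.85 in PFOS20, and the groups overlapped (difference -0.17, unadjusted 95% interval -0.79 to 0.45, adjusted p = 0.7). For ptgs2a, the inducible cyclooxygenase, the interval was -0.72 to 0.07 (adjusted p = 0.24). For socs3a, a brake on cytokine signalling, it was -0.60 to 0.04 (adjusted p = 0.22), and for the stress factor atf3 -0.96 to -0.06 (adjusted p = 0.13). Mmp13a (-0.69, adjusted p = 0.077) and the AP-1 subunit fosl1a (-1.42, adjusted p = 0.052) had negative differences that missed the threshold, although no OBS30 library reached the lowest PFOS20 library in either. These intervals do not show that the genes were alike in the 2 groups.

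**Figure D2:**
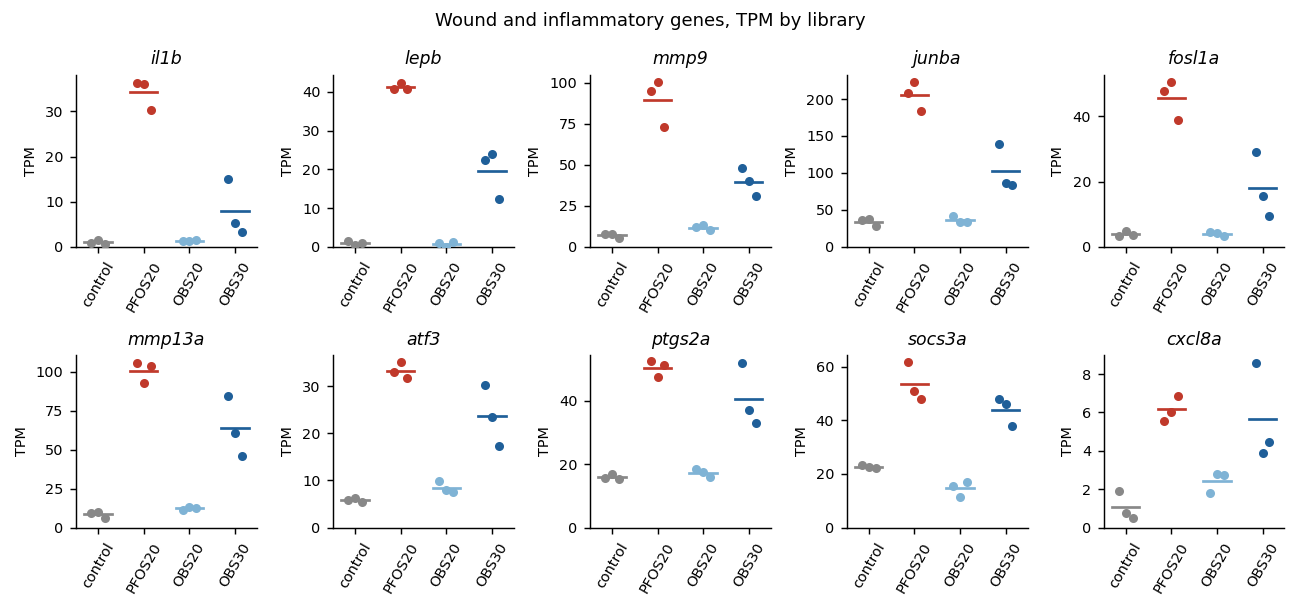
TPM (vertical axis) of 10 wound and inflammatory genes in each of the 12 libraries, by group, with a line at the group mean. Il1b, lepb, mmp9 and junba are the 4 that differed between OBS30 and PFOS20, and in cxcl8a the points of these groups overlap.

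By list, 11 of 65 tested genes of wound response and matrix remodelling were lower in OBS30 (16.9%, against 2.81% over all genes). In this list 1 was higher (1.54%, against 6.29%), and the median was -0.19 (-0.35 relative to all genes). The lower count was 12, 0 and 0 without OBS30 replicate 1, 3 or 4, and 0, 0 and 11 without PFOS20 replicate 2, 3 or 4. It was 3 with no filter. Of 50 cytokine and inflammatory signalling genes 7 were lower (14%) and 3 higher (6%, near the 6.29% over all genes). The lower count was 6, 0 and 0 without OBS30 replicate 1, 3 or 4. Without PFOS20 replicate 2, 3 or 4 it was 1, 0 and 7. It was 4 with no filter and 11 after quantile normalisation. One of the higher cytokine-list genes, nfkb2, has its reads split over 2 table entries, and its difference of 1.18 became 0.15 (adjusted p = 0.51) when these were summed. Macrophage markers went the same way, and 5 of 25 macrophage and microglia genes were lower in OBS30 (20%). In this list 0 were higher (0 also at an unadjusted p below 0.05 in limma). Over all 37 macrophage and microglia entries, tested or not, the summed level was 1639.9 to 1844 TPM in OBS30 and 2023 to 2391 in PFOS20. Mpeg1.1, a defining macrophage gene, was listed at 0 in all 6 libraries. The summed neutrophil markers (25 entries, tested or not) overlapped, at 524 to 607 and 561 to 594 TPM. Of 17 neutrophil genes 2 were lower (11.8%) and 0 higher (0 at an unadjusted p below 0.05). Mpx, the neutrophil peroxidase, had an interval of -0.97 to -0.06 (adjusted p = 0.13). The lower macrophage count was 2, 1 and 1 without OBS30 replicate 1, 3 or 4, and 2, 1 and 3 without PFOS20 replicate 2, 3 or 4. It was 2 with no filter, 8 after quantile normalisation and 8 after median-of-ratios scaling. The part of leukocyte number in the cytokine differences was not tested, and in whole larvae more cells of a type and more RNA per cell cannot be told apart.

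Some calcium hormone and ion transport genes also differed between the groups. Pth1a, a parathyroid hormone that raises calcium uptake in fish, was 8.70, 6.56 and 5.64 TPM in OBS30 and 39.9, 45.9 and 34.9 in PFOS20, against 1.11, 0.820 and 1.23 in control and 2.98, 2.46 and 2.34 in OBS20. Its lowest PFOS20 library was above every other library of the study. The difference was -2.38 ± 0.18 (adjusted p = 0.0036) and was called in every leave-out. Its paralogue pth1b was 1.80, 0.610 and 2.52 TPM in OBS30, overlapping control at 1.97, 1.74 and 1.26, and 15.4, 17.01 and 11.7 in PFOS20 (difference -2.63 ± 0.30, adjusted p = 0.0094, called in every leave-out). Pth2, a related neuropeptide, was also lower in OBS30 (-1.51 ± 0.30, adjusted p = 0.033), a call lost without any one library other than PFOS20 replicate 4 (adjusted p up to 0.11).

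Trpv6, the apical calcium channel of skin ionocytes, went the other way, with 16.1, 11 and 12.8 TPM in OBS30 and 1.58, 2.67 and 3.22 in PFOS20, against 4.19, 2.58 and 4.00 in control. Every OBS30 library was above every PFOS20 and control library, while PFOS20 and control overlapped (difference 2.05 ± 0.23, adjusted p = 0.0084, called in every leave-out). Rhcgl1, an ammonia transporter of ionocytes, was 2.73, 2.25 and 2.05 TPM in OBS30 and 25.5, 16.9 and 15.7 in PFOS20, a difference of -2.58 ± 0.20 (adjusted p = 0.0037, called in every leave-out). PFOS20 overlapped control at 18.3, 20.3 and 25.6 TPM. Among 42 ionocyte and calcium genes 4 were higher and 6 lower, with a median of 0.13 (-0.03 relative to all genes). The 4 higher included atp2b2, a calcium pump of the plasma membrane (1.34 ± 0.27), and atp1a1a.1, a sodium pump subunit (0.50 ± 0.11). The higher count was 2, 1 and 1 without OBS30 replicate 1, 3 or 4, and 1, 1 and 7 without PFOS20 replicate 2, 3 or 4. It was 1 with no filter. The lower count was 4, 4 and 4 without OBS30 replicate 1, 3 or 4, and 4, 4 and 7 without PFOS20 replicate 2, 3 or 4.

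Neuronal genes formed the list with the largest share of called members. Of 77 neuronal and synaptic genes 47 were higher in OBS30 and 0 lower (0 also at an unadjusted p below 0.05 in limma), with a median of 1.01 (0.85 relative to all genes). Set against the mean of control, the list median was -0.35, -0.13 and -0.08 in the 3 OBS30 libraries and -1.42, -1.31 and -0.71 in PFOS20 replicates 2, 3 and 4. The OBS30 libraries lay closer to control, and PFOS20 replicate 4 stood between them and the other PFOS20 libraries. The count was 18, 2 and 2 without OBS30 replicate 1, 3 or 4, and 3, 2 and 71 without PFOS20 replicate 2, 3 or 4. It was 16 with no filter.

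Nefma, a neurofilament subunit of axons, was 35.5, 40.04 and 41.4 TPM in OBS30, 9.76, 11.8 and 20.2 in PFOS20 and 41.1, 38.7 and 32.8 in control. OBS30 and control overlapped and PFOS20 was below both (difference 1.48 ± 0.24, adjusted p = 0.024, up to 0.099 with 1 library left out). Stmn4, a neuronal microtubule regulator, showed the same order at 72.6, 78.1 and 78.6 and 26.7, 22.8 and 35.1 TPM, with 65.2, 71.1 and 78.0 in control (1.43 ± 0.16, adjusted p = 0.0084, called in every leave-out). Eno2, the neuronal enolase, had a difference of 1.42 ± 0.31 (adjusted p = 0.04). Tuba1c, a tubulin of young neurons, was 349.9, 355 and 379 TPM in OBS30 and 149, 160.4 and 241 in PFOS20, both below control at 532, 552 and 517. Both calls held only without PFOS20 replicate 4, with adjusted p up to 0.14 and 0.11 otherwise.

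Stmn4l, a stathmin paralogue, departed from this order. It was 167, 164 and 148 TPM in OBS30, 28.3, 39.4 and 50.1 in PFOS20, 66.6, 60.6 and 61.6 in control and 80.3, 67.4 and 92.3 in OBS20. OBS30 was above and PFOS20 below all control libraries (difference 2.03 ± 0.19, adjusted p = 0.0058, called in every leave-out). Glula, glutamine synthetase, which astroglia and muscle use to fix ammonia into glutamine, was 861, 885 and 926 TPM in OBS30 and 303, 370.0 and 435 in PFOS20, the latter overlapping control at 414, 427 and 386. Its difference was 1.28 ± 0.13 (adjusted p = 0.0064, called in every leave-out). In the glia and myelin list 6 of 33 genes were higher and 2 lower, with mbpb, a myelin basic protein, lower (-0.35 ± 0.08, adjusted p = 0.045, up to 0.16 with 1 library left out). The higher count was 3, 2 and 2 without OBS30 replicate 1, 3 or 4, and 3, 3 and 9 without PFOS20 replicate 2, 3 or 4. It was 2 after median-of-ratios scaling, where 3 were lower.

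Library composition varied as well. Genes listed at 1 TPM or more numbered 25775, 26619 and 27598 in PFOS20 replicates 2, 3 and 4, the order of their neuronal medians. They numbered 27023 to 28432 in OBS30 and 27589 to 27708 in control. PFOS20 replicate 4 had 27598 such genes and a neuronal median of -0.71, and OBS30 replicate 1 had 27023 and -0.35. OBS20 replicate 3 had 23942, with a neuronal median of -0.49 against control. The share of TPM in ribosomal protein genes was 14.01% to 15.4% in OBS30 and 16.3% to 17.8% in PFOS20. The part of library composition in the neuronal result was not tested. After quantile normalisation 54 and after median-of-ratios scaling 49 of the neuronal genes were higher. Of 77 proliferation and DNA replication genes 3 were higher (3.90%, against 6.29% over all genes) and 0 lower (0 at an unadjusted p below 0.05), at a median 0.15 above that of all genes. At an unadjusted p below 0.05 in limma 29 of the 77 were higher. In 34 of the 77 every OBS30 library was above every PFOS20 library, against 25.1% over all genes. The list median against control was -0.40 in OBS30 and -0.66 in PFOS20. The higher count of called proliferation genes was 0, 0 and 0 without OBS30 replicate 1, 3 or 4, and 0, 0 and 15 without PFOS20 replicate 2, 3 or 4. It was 0 with no filter, 7 at a mean of 5 TPM or more, 1 after median-of-ratios scaling, 9 over all 12 libraries and 11 with entries of 1 protein summed.

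**Figure D3:**
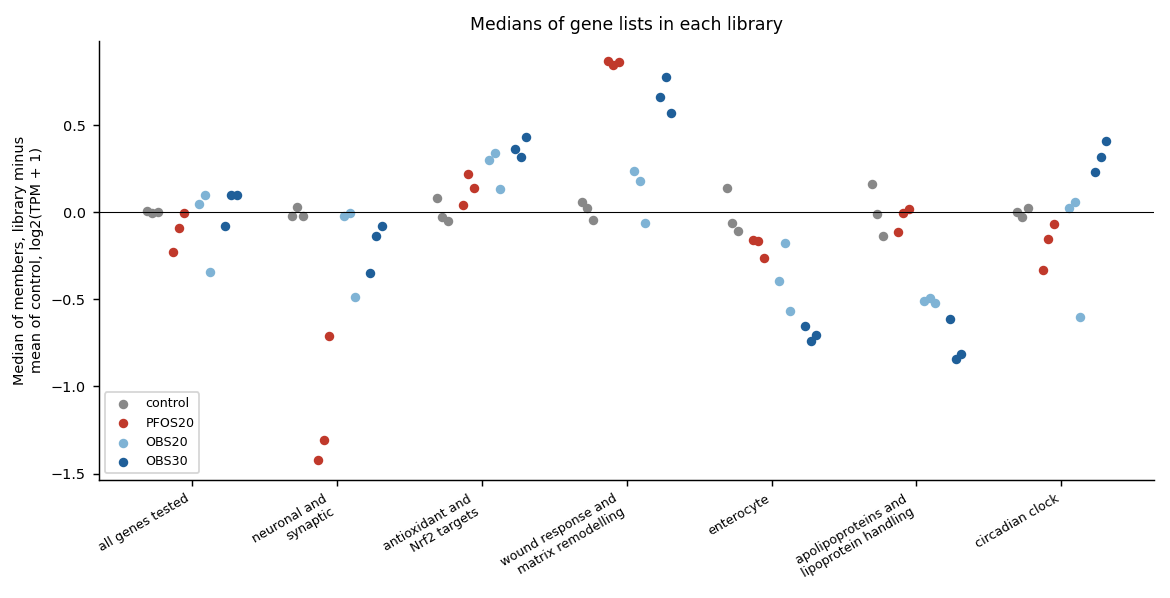
Median over the tested members of each gene list of the library value minus the control mean, on log2(TPM + 1), in each of the 12 libraries (points, coloured by group). The PFOS20 points of the neuronal list run from -1.42 to -0.71 and the OBS30 points from -0.35 to -0.08.

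Some antioxidant genes, 19 of 68 tested, were higher in OBS30 than in PFOS20. Gstp1, a glutathione transferase driven by the Nrf2 pathway in zebrafish, was 2789.5, 2585 and 2629 TPM in OBS30 and 752, 719 and 742 in PFOS20, against 533, 503 and 477 in control and 1972, 1809.8 and 2101 in OBS20. The 3 libraries within each group differed little, and the groups did not overlap (difference 1.85 ± 0.06, adjusted p = 0.0002, called in every leave-out). Prdx1, a peroxiredoxin that removes hydrogen peroxide, was 361, 389 and 354 TPM in OBS30 and 117, 118 and 143 in PFOS20, and 59.7, 46.6 and 52.5 in control. PFOS20 was thus also above control, and OBS30 above both (1.54 ± 0.10, adjusted p = 0.0024, called in every leave-out). Fthl31, a ferritin heavy chain-like gene, was higher by 1.87 ± 0.14 (adjusted p = 0.0036), and txnipb, an inhibitor of thioredoxin, by 1.602 ± 0.17 (adjusted p = 0.0076), both called in every leave-out. Txnipb was 20.5, 21.8 and 17.9 TPM in OBS30 and 4.97, 5.48 and 7.56 in PFOS20, on either side of control at 12.6, 11.14 and 16.7.

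Of the list of antioxidant and Nrf2-target genes 0 were lower (4 lower at an unadjusted p below 0.05 in limma), with a median of 0.34 (0.18 relative to all genes). The higher count was 15, 11 and 8 without OBS30 replicate 1, 3 or 4, and 11, 9 and 21 without PFOS20 replicate 2, 3 or 4. Several well known members did not pass. Hmox1a, the inducible heme oxygenase, was 37.8, 18.5 and 25.9 TPM in OBS30 and 18.8, 28.1 and 18.4 in PFOS20 with overlap (interval -0.36 to 0.94, adjusted p = 0.52). For gclc, the enzyme that limits glutathione synthesis, the interval was 0.00 to 0.58 (adjusted p = 0.16), and for nqo1, a quinone reductase, 0.13 to 0.67 (adjusted p = 0.072). Fthl27, another ferritin gene, had an interval of 0.13 to 0.58 (adjusted p = 0.063).

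Single xenobiotic enzymes differed in both directions, also within families. None of 11 aryl hydrocarbon receptor targets was called in limma (2 higher and 0 lower at an unadjusted p below 0.05). Cyp1a, the classic target, was 90.7, 76.1 and 79.1 TPM in OBS30 and 68.5, 82.2 and 79.0 in PFOS20, with overlap (difference 0.097, interval -0.16 to 0.36, adjusted p = 0.59), and both groups were above control at 54.2, 41.3 and 37.4. Cyp2k18, a cytochrome P450 of the CYP2 family, was 34.02, 44.0 and 56.2 TPM in OBS30 and 8.18, 9.54 and 11.2 in PFOS20 (2.08 ± 0.20, adjusted p = 0.0058). Cyp2aa7, of the same family, was higher by 1.79 ± 0.20 (adjusted p = 0.0087), and both were called in every leave-out. Of 2 entries named cyp2y3, the one with the identifier ENSDARG00000101423 was higher by 0.97 ± 0.13 (adjusted p = 0.015), and copies this close may share reads. Over both entries together the difference ran from 0.84 to 2.68 with 1 library left out, and 5 of these 12 results were called. The entries were unlike in this. The call of 1 entry held only without PFOS20 replicate 4, and that of the other was lost only without OBS30 replicate 3 or 4. Cyp2k6 was lower in OBS30 (-2.30 ± 0.30, adjusted p = 0.014). So were the sulfotransferases sult1st3 (-1.997 ± 0.22) and sult2st2 (-1.12 ± 0.12), both called in every leave-out, while sult6b1 was higher (0.60 ± 0.07). Over 72 other xenobiotic genes 5 were higher (6.94%, near the 6.29% over all genes) and 12 lower (16.7%, against 2.81%). The lower count was 9, 3 and 3 without OBS30 replicate 1, 3 or 4. Without PFOS20 replicate 2, 3 or 4 it was 6, 3 and 11. The lower count was 22 after quantile normalisation and 21 after median-of-ratios scaling.

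Part of the gut and liver genes were lower in OBS30 than in PFOS20, and the apolipoprotein list had the largest share of lower members. Of 24 apolipoprotein and lipoprotein genes 13 were lower and 0 higher (2 higher at an unadjusted p below 0.05 in limma), with a median of -0.57 (-0.73 relative to all genes). The list median against control was -0.61, -0.84 and -0.81 in OBS30 and -0.11, -0.00 and 0.02 in PFOS20, so the PFOS20 libraries stood near control. Apoa4b.1, an apolipoprotein of chylomicrons made by enterocytes, was 180.5, 179.9 and 148 TPM in OBS30, 423, 414 and 370.1 in PFOS20 and 806, 509.9 and 561 in control. Every OBS30 library was below every PFOS20 and control library (-1.25 ± 0.10, adjusted p = 0.0043). Apoc1, a lipoprotein exchange apolipoprotein, was lower by -1.38 ± 0.13 (adjusted p = 0.0059), and both were called in every leave-out. Of 2 entries named apoa4b.2, ENSDARG00000094929 stood at -2.80 and ENSDARG00000020866 at -1.36, both called in every leave-out; reads of these near copies may have been divided between them. The lower count over the list was 12, 6 and 6 without OBS30 replicate 1, 3 or 4, and 9, 6 and 14 without PFOS20 replicate 2, 3 or 4.

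The enterocyte list had 23 of 53 genes lower and 0 higher (2 higher at an unadjusted p below 0.05 in limma), with a median of -0.56 (-0.72 relative to all genes). Its lower count was 18, 8 and 7 without OBS30 replicate 1, 3 or 4, and 12, 8 and 19 without PFOS20 replicate 2, 3 or 4. Chia.1, a chitinase of the gut, was 5.73, 3.55 and 4.43 TPM in OBS30 and 21.07, 23.9 and 17.02 in PFOS20, with control at 54.6, 21.6 and 22.4 (-1.97 ± 0.19, adjusted p = 0.0061). PFOS20 and control overlapped and OBS30 was below both. Rbp2a, which binds retinol inside enterocytes, was 159.6, 126 and 122 TPM in OBS30 and 384, 312 and 296 in PFOS20, and 662, 546 and 530.2 in control, a stepwise order with no overlap (-1.28 ± 0.14, adjusted p = 0.0084). Mep1a.2, a meprin protease of the brush border, was lower by -1.68 ± 0.19 (adjusted p = 0.0095, and 0.051 without OBS30 replicate 4). Cd36, a fatty acid transporter, was lower by -1.13 ± 0.10 (adjusted p = 0.0047). Chia.1, rbp2a and cd36 were called in every leave-out.

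Ttr, transthyretin, which carries thyroid hormone in blood and is a known binding partner of PFOS, was 17.7, 12.8 and 13.4 TPM in OBS30, 48.8, 53.5 and 47.1 in PFOS20, 45.0, 50.8 and 50.6 in control and 20.4, 24.5 and 21.4 in OBS20. PFOS20 overlapped control, and every OBS30 library was below both (-1.71 ± 0.14, adjusted p = 0.0043, called in every leave-out). Cyp7a1, the rate-limiting enzyme of bile acid synthesis, was 3.47, 4.84 and 3.67 TPM in OBS30 and 14.9, 14.4 and 13.9 in PFOS20 with control at 25.4, 17.9 and 20.1, again a stepwise order (-1.64 ± 0.15, adjusted p = 0.0048, called in every leave-out). The acute phase gene crp2, of the C-reactive protein family, was lower by -2.03 ± 0.38 (adjusted p = 0.031) and mbl2, a mannose-binding lectin, by -1.73 ± 0.29 (adjusted p = 0.025). These last calls were lost with some libraries left out, at adjusted p up to 0.11 and 0.094. Fabp10a, the fatty acid binding protein that marks zebrafish hepatocytes, was 1085, 751 and 821 TPM in OBS30 and 1141, 1020.0 and 900.5 in PFOS20, with overlap (interval -0.57 to 0.14, adjusted p = 0.38).

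Of 52 hepatocyte genes 14 were lower and 0 higher (4 higher at an unadjusted p below 0.05 in limma), and of 54 complement, coagulation and acute phase genes 11 were lower and 0 higher (2 at an unadjusted p below 0.05). Their medians were -0.30 and -0.37 (-0.46 and -0.53 relative to all genes). The lower hepatocyte count was 9, 4 and 4 without OBS30 replicate 1, 3 or 4, and 9, 4 and 13 without PFOS20 replicate 2, 3 or 4. The lower complement count was 9, 3 and 1 without OBS30 replicate 1, 3 or 4, and 5, 1 and 11 without PFOS20 replicate 2, 3 or 4. It was 7 with no filter, 20 after quantile normalisation and 20 after median-of-ratios scaling. In complement, cfd, complement factor D, had a positive difference of 1.77 (adjusted p = 0.054), which became -0.09 (adjusted p = 0.68) when the 3 entries of its protein were summed. The summed level of all 58 hepatocyte entries, tested or not, was 5386 to 6425 TPM in OBS30 and 6444 to 6928 in PFOS20.

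**Figure D4:**
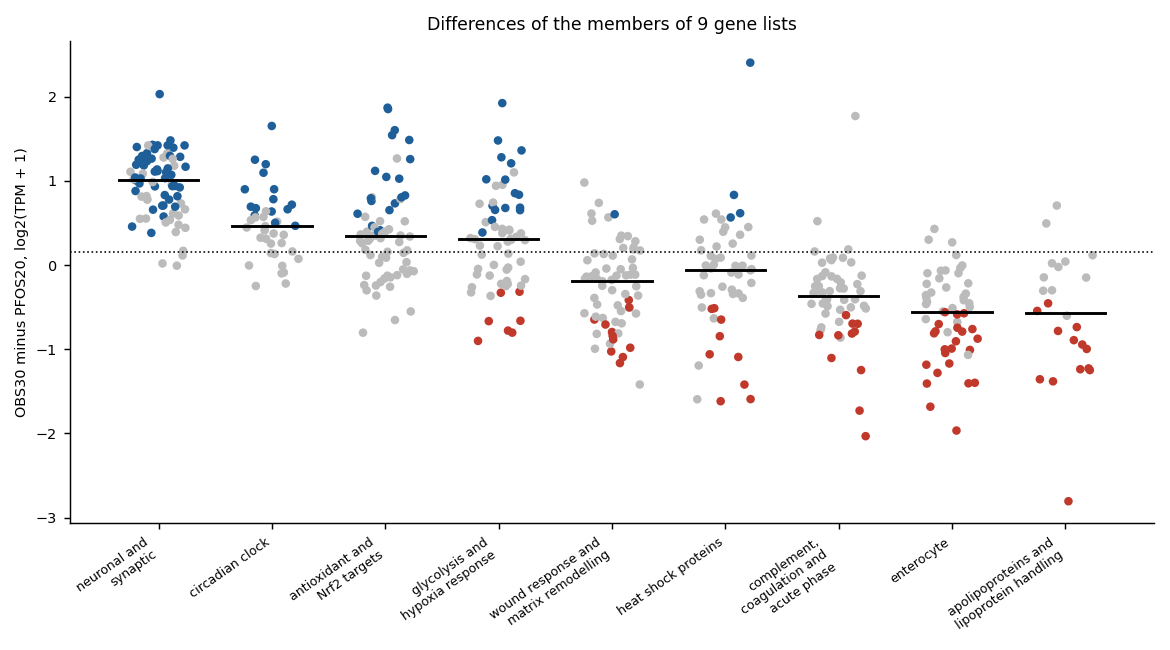
Difference of each tested member (OBS30 minus PFOS20 on log2(TPM + 1), vertical axis) for 9 gene lists, with a bar at the list median and a dotted line at the median of all genes, 0.16. Blue points were called higher in OBS30, red lower, and grey were not called. The neuronal median is 1.01 and the apolipoprotein median -0.57.

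Several chaperone genes were lower in OBS30 than in PFOS20. Hspa5 (BiP), the main chaperone of the endoplasmic reticulum, was 78.5, 86.2 and 78.8 TPM in OBS30 and 174, 169 and 179 in PFOS20, against 70.4, 75.0 and 69.2 in control. OBS30 stood just above control and PFOS20 more than 1 log2 unit above both (-1.09 ± 0.08, adjusted p = 0.0036, called in every leave-out). Dnajb9b, its cochaperone and a target of the unfolded protein response, was 3.95, 7.57 and 5.44 TPM in OBS30, overlapping control, and 17.8, 18.8 and 16.9 in PFOS20 (-1.54 ± 0.21, adjusted p = 0.015, up to 0.069 with 1 library left out). Creld2, another endoplasmic reticulum stress gene, had a difference of -0.95 ± 0.22 (adjusted p = 0.043), and its call was lost without any one of the 6 libraries (adjusted p up to 0.15). Hspb11, a small heat shock protein, was 54.8, 47.4 and 46.1 TPM in OBS30 and 177, 144 and 141 in PFOS20 (-1.62 ± 0.12, adjusted p = 0.0037, called in every leave-out), and hspb9 was lower by -1.42 ± 0.18 (adjusted p = 0.013, lost without OBS30 replicate 3 or 4, up to 0.063).

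The cytosolic chaperones did not share 1 direction. The Hsp90 gene of muscle, hsp90aa1.1, was 28.0, 28.5 and 24.0 TPM in OBS30 and 51.3, 68.1 and 52.4 in PFOS20 (-1.06 ± 0.14, adjusted p = 0.014), while its tandem copy hsp90aa1.2 was 42.7, 45.7 and 40.9 and 22.8, 23.7 and 24.6 TPM (0.83 ± 0.10, adjusted p = 0.009). As near copies these may share reads. Hsp70l, the heat-inducible Hsp70, was 45.9, 44.0 and 43.0 TPM in OBS30 and 35.8, 27.5 and 37.9 in PFOS20, both above control at 6.73, 5.55 and 6.13, and missed the threshold (interval 0.08 to 0.71, adjusted p = 0.1). Over 52 heat shock genes 4 were higher (7.69%, near the 6.29% over all genes) and 9 lower (17.3%, against 2.81%). The higher genes include hspa4b, whose reads are divided among table entries, as given below. The lower count was 6, 3 and 3 without OBS30 replicate 1, 3 or 4. Without PFOS20 replicate 2, 3 or 4 it was 6, 5 and 9. It was 14 after median-of-ratios scaling. Over 63 genes of the integrated stress and unfolded protein responses 2 were higher (3.17%, below the 6.29%) and 6 lower (9.52%, against 2.81%). Atf4b, whose reads are also divided among entries, is among the lower genes. The lower count was 4, 3 and 1 without OBS30 replicate 1, 3 or 4. Without PFOS20 replicate 2, 3 or 4 it was 2, 1 and 5. It was 16 after quantile normalisation, 17 after median-of-ratios scaling and 10 with entries of 1 protein summed.

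The most extreme named differences in both directions belonged to 2 stress genes whose reads were divided among table entries. Atf4b, a transcription factor of the integrated stress response, was 0.410, 13.9 and 1.24 TPM in OBS30 and 62.7, 65.3 and 28.8 in PFOS20 at its own entry, with 0.0900, 28.0 and 19.9 in control, a spread that was wide within each group. Its difference of -3.79 (adjusted p = 0.041) became 0.06 (adjusted p = 0.68) when the 3 entries with the same annotated protein were summed. Hspa4b, an Hsp110 chaperone, went from 2.404 (adjusted p = 0.027) to 0.05 (adjusted p = 0.74). For these genes the entry's value is uncertain and no difference of the gene was found in the sums.

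Genes of low oxygen and of energy use differed in both directions. Egln3, an oxygen-sensing prolyl hydroxylase induced by HIF, was 44.5, 36.8 and 33.8 TPM in OBS30 and 9.08, 13.9 and 17.4 in PFOS20, against 14.96, 4.82 and 6.12 in control and 33.2, 35.9 and 32.6 in OBS20. OBS30 was above all PFOS20 and control libraries, which overlapped each other (1.48 ± 0.23, adjusted p = 0.021). Ankrd37, another HIF target, was higher by 1.92 ± 0.34 (adjusted p = 0.027), and ndrg1b, a hypoxia-induced stress gene, by 1.36 ± 0.18 (adjusted p = 0.015). These 3 calls were lost with some libraries left out, at adjusted p up to 0.079, 0.1 and 0.072. Pfkfb3, which makes the activator of phosphofructokinase, was 92.7, 101 and 90.3 TPM in OBS30 and 41.5, 35.7 and 38.1 in PFOS20, the latter overlapping control at 43.9, 36.4 and 45.9 (1.28 ± 0.10, adjusted p = 0.0037, called in every leave-out).

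Aldoaa, a muscle-type aldolase, was 879, 942 and 906 TPM in OBS30 and 1443, 1424 and 1459 in PFOS20, both above control at 419, 441 and 439 (-0.67 ± 0.06, adjusted p = 0.0043, called in every leave-out). Pfkmb, a muscle phosphofructokinase, was lower in OBS30 by -0.78 ± 0.13 (adjusted p = 0.024). In the list of glycolysis and hypoxia response 16 of 62 genes were higher and 7 lower. The higher count was 6, 1 and 1 without OBS30 replicate 1, 3 or 4, and 6, 1 and 22 without PFOS20 replicate 2, 3 or 4. It was 8 with no filter.

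Some mitochondrial and ribosomal transcripts were lower in OBS30, but the mitochondrially encoded and ribosomal counts were smaller after quantile normalisation and after median-of-ratios scaling. Mt-atp6, a subunit of ATP synthase encoded in mitochondrial DNA, was 7185, 6681 and 6926 TPM in OBS30 and 12143, 12443 and 10391 in PFOS20 (-0.75 ± 0.08, adjusted p = 0.0071), and cycsb, a cytochrome c, was 698, 723 and 651 and 1177, 1347 and 1213 TPM (-0.85 ± 0.08, adjusted p = 0.0048). Both were called in every leave-out. In cycsb OBS30 overlapped control at 599, 653 and 665 TPM. Of 13 mitochondrially encoded genes 5 were lower and 0 higher (0 at an unadjusted p below 0.05 in limma). The lower count was 2 with no filter, 0 after quantile normalisation and 2 after median-of-ratios scaling. With 1 library left out it was 2, 1 and 1 without OBS30 replicate 1, 3 or 4, and 2, 1 and 6 without PFOS20 replicate 2, 3 or 4. Of 82 nuclear genes of oxidative phosphorylation 12 were lower and 0 higher (0 at an unadjusted p below 0.05), and the lower count was 4, 1 and 1 without OBS30 replicate 1, 3 or 4, and 1, 1 and 15 without PFOS20 replicate 2, 3 or 4. It was 6 with no filter. Of 80 cytosolic ribosomal protein genes 19 were lower and 0 higher (0 at an unadjusted p below 0.05), but the lower count was 0 with no filter, 35 at a mean of 5 TPM or more, 2 after quantile normalisation, 0 after median-of-ratios scaling, 8 over all 12 libraries and 31 with entries of 1 protein summed. With 1 library left out it was 10, 0 and 0 without OBS30 replicate 1, 3 or 4, and 0, 0 and 41 without PFOS20 replicate 2, 3 or 4.

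Ucp1, a mitochondrial uncoupling protein, was 90.5, 76.5 and 84.1 TPM in OBS30 and 188, 215 and 168 in PFOS20, on either side of control at 151, 102 and 122 (-1.17 ± 0.12, adjusted p = 0.0061, called in every leave-out). Of 54 genes of fatty acid oxidation and PPAR targets 9 were lower in OBS30 and 0 higher (2 higher at an unadjusted p below 0.05 in limma), and the lower count was 8, 3 and 3 without OBS30 replicate 1, 3 or 4, and 4, 3 and 9 without PFOS20 replicate 2, 3 or 4. It was 19 after quantile normalisation and 17 after median-of-ratios scaling. Dgat2, which makes triglyceride, was lower by -1.40 ± 0.18 (adjusted p = 0.014). In cholesterol synthesis 1 of 28 genes was higher (3.57%, against 6.29% over all genes) and 0 lower (2 at an unadjusted p below 0.05). Cyp51, a lanosterol demethylase, was 9.44, 13.4 and 12.6 TPM in OBS30 and 11.6, 14.03 and 12.9 in PFOS20, both below control at 34.9, 27.9 and 28.4 (interval -0.50 to 0.25, adjusted p = 0.64).

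Nr1d4b, a Rev-erb repressor of the clock, was 6.24, 7.14 and 6.43 TPM in OBS30 and 0.880, 1.56 and 1.93 in PFOS20, with 1.42, 1.43 and 1.43 in control and 2, 2.46 and 0.440 in OBS20. OBS30 stood apart from the other 3 groups (1.65 ± 0.20, adjusted p = 0.011). Its paralogue nr1d4a (1.25 ± 0.20), the repressor nfil3-5 (1.198 ± 0.11) and the Ror receptor gene rorcb (1.097 ± 0.19) were also higher, and of these nfil3-5 was called in every leave-out. Adjusted p reached 0.056 for nr1d4b, 0.098 for nr1d4a and 0.11 for rorcb with 1 library left out. In total 15 of 39 clock genes were higher and 0 lower (0 at an unadjusted p below 0.05 in limma), at a median of 0.47 (0.31 relative to all genes), and the higher count was 10, 2 and 1 without OBS30 replicate 1, 3 or 4, and 4, 2 and 15 without PFOS20 replicate 2, 3 or 4. The labels used here give no time of day of sampling, so its part in the clock genes was not tested.

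Muscle genes were mixed. Tnni4b.1, a troponin I, was 4.79, 6.29 and 4.74 TPM in OBS30 and 25.6, 35.2 and 22.8 in PFOS20, both above control at 2.07, 1.56 and 0.970 (-2.19 ± 0.19, adjusted p = 0.0047). Mustn1b, a nuclear protein of growing and regenerating muscle and skeleton, was 8.39, 12.1 and 6.85 TPM in OBS30, overlapping control, and 50.1, 45.0 and 35.3 in PFOS20 (-2.16 ± 0.22, adjusted p = 0.0065). Both were called in every leave-out. Ankrd1a, a stretch- and injury-induced muscle gene, was lower by -2.44 ± 0.30 (adjusted p = 0.012, lost without OBS30 replicate 4 or PFOS20 replicate 3, up to 0.056). Ampd1, the muscle AMP deaminase, was higher by 0.93 ± 0.11 (adjusted p = 0.0099). Tnni4b.1, mustn1b and ankrd1a are not in the skeletal muscle list, whose lowest difference was -0.92. Ankrd1a is in the heart muscle list, where 2 of 15 genes were lower and 0 higher. With 1 library left out 0 to 2 heart genes were lower. The summed level of the skeletal muscle list was 112138 to 120378 TPM in OBS30 and 93021.5 to 106821 in PFOS20. Of 83 skeletal muscle genes 17 were higher and 7 lower, and after median-of-ratios scaling 6 were higher and 8 lower. The higher count was 9, 1 and 0 without OBS30 replicate 1, 3 or 4, and 6, 1 and 19 without PFOS20 replicate 2, 3 or 4. It was 11 with no filter and 6 after median-of-ratios scaling.

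In the exocrine pancreas list 6 of 21 genes were higher and 3 lower. Ctrb1, chymotrypsinogen, was 391, 381 and 402 TPM in OBS30 and 248, 239 and 279.8 in PFOS20 (0.62 ± 0.08, adjusted p = 0.014), whereas the trypsin gene prss59.1 was 68.2, 54.4 and 66.2 and 104, 106 and 108 TPM (-0.75 ± 0.11, adjusted p = 0.017). The higher count was 2, 0 and 0 without OBS30 replicate 1, 3 or 4, and 1, 0 and 7 without PFOS20 replicate 2, 3 or 4. It was 3 with no filter, 2 after median-of-ratios scaling and 0 over all 12 libraries, where 4, 4 and 3 were lower after quantile normalisation, after median-of-ratios scaling and over 12 libraries. Tg, thyroglobulin, the precursor of thyroid hormone, was 6.32, 3.90 and 4.15 TPM in OBS30, 0.720, 1.03 and 1.05 in PFOS20 and 1.24, 1.14 and 0.920 in control. OBS30 was above PFOS20 and control, which overlapped (1.56 ± 0.21, adjusted p = 0.014, lost without OBS30 replicate 4 or PFOS20 replicate 3, up to 0.059). Pax8, a transcription factor of the thyroid and kidney, was higher by 0.80 ± 0.16 (adjusted p = 0.035).

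Among pigment cell genes 7 of 31 were lower in OBS30 and 0 higher (0 at an unadjusted p below 0.05 in limma). Pmela, a melanosome fibre protein, was 37.2, 36.5 and 34.8 TPM in OBS30, overlapping control at 35.1, 33.3 and 38.2, and 57.6, 63.2 and 67.5 in PFOS20 (-0.78 ± 0.10, adjusted p = 0.012). The lower pigment count was 3, 0 and 0 without OBS30 replicate 1, 3 or 4, and 3, 0 and 6 without PFOS20 replicate 2, 3 or 4. It was 4 with no filter, 14 after quantile normalisation and 14 after median-of-ratios scaling. Tcnbb, of the family of vitamin B12 binding proteins, was 629, 485 and 461 TPM in OBS30 and 334, 301 and 282 in PFOS20, both above control at 144, 117 and 158 (0.77 ± 0.13, adjusted p = 0.026). It was the 1 higher of 10 vitamin B12 genes tested, and 0 were lower (2 at an unadjusted p below 0.05 in limma). Tcnba, of the same family, went the other way, at -0.98 to -0.63 with 1 library left out, and was called in 1 of these 6 fits. Igfbp1a and igfbp1b, which bind insulin-like growth factors and rise in starvation and hypoxia in fish, were lower by -0.66 ± 0.08 and -0.90 ± 0.14 (adjusted p = 0.011 and 0.021). In the insulin-like growth factor and leptin list 2 of 21 genes were higher (9.52%, against 6.29% over all genes). In the same list 3 were lower (14.3%, against 2.81%), and the median was 0.11 (-0.05 relative to all genes). With 1 library left out 0 to 2 were higher and 0 to 3 lower. Stab2, a scavenger receptor of endothelium, was 2.91, 2.96 and 3.74 TPM in OBS30, overlapping control, and 10.7, 10.14 and 10.06 in PFOS20 (-1.43 ± 0.14, adjusted p = 0.0058, called in every leave-out). It was the 1 lower of 36 endothelial genes tested, and 1 was higher (2.78% each, against 2.81% lower and 6.29% higher over all genes).

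The next lists stand beside shares over all genes of 6.29% higher and 2.81% lower. In the lens list 0 of 54 were higher and 3 lower (5.56%). The photoreceptor list had 2 and 3 of 75 (2.67% and 4%), and keratins and epidermis 3 and 1 of 51 (5.88% and 1.96%). Collagens, cartilage and bone had 2 and 1 of 50 (4% and 2%). The keratin and collagen shares were thus below those over all genes. Among p53 targets 5 and 2 of 43 were higher and lower (11.6% and 4.65%), and in the proteasome list 0 and 3 of 44 (0% and 6.82%). With 1 library left out the p53 list held 0 to 6 higher and 0 to 3 lower, and the proteasome list 0 to 3 lower. Of 5 estrogen and vitellogenin genes none was called in limma (0 higher and 2 lower at an unadjusted p below 0.05).

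Among the 12 largest differences in each direction that the naming rule picked, several genes belong to none of these groups. Pcdh2ab8, a clustered protocadherin of neurons, was 11.2, 16.2 and 12.7 TPM in OBS30 and 2.17, 0.450 and 3.72 in PFOS20 (2.35 ± 0.41, adjusted p = 0.027), with control at 6.46, 8.55 and 6.46. The protocadherins of this cluster are near copies, so its reads may be shared with others. Myh11b, a smooth muscle myosin, was 4.96, 7.06 and 5.80 and 0.0900, 1.64 and 0.1 TPM (2.23 ± 0.36, adjusted p = 0.023). The naming rule took only genes whose libraries do not overlap between the groups, so that separation is not a result here. The OBS30 values of pcdh2ab8 and myh11b were near or above control. Slc7a14a, a cationic amino acid transporter family gene, was higher by 1.99 ± 0.35 (adjusted p = 0.027) and nrg3b, a neuregulin ligand of ErbB receptors, by 1.86 ± 0.34 (adjusted p = 0.028). Sdr42e2, a short-chain dehydrogenase, was 2.72, 0.230 and 0.160 TPM in OBS30 and 4.81, 10.9 and 6.84 in PFOS20 (-2.23 ± 0.49, adjusted p = 0.04), against 0.05, 0.150 and 0.1 in control. OBS30 replicate 1 was the only OBS30 library above 1 TPM. With 1 library left out, adjusted p reached 0.1 for pcdh2ab8, 0.092 for myh11b, 0.11 for slc7a14a, 0.1 for nrg3b and 0.14 for sdr42e2.

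**Figure D5:**
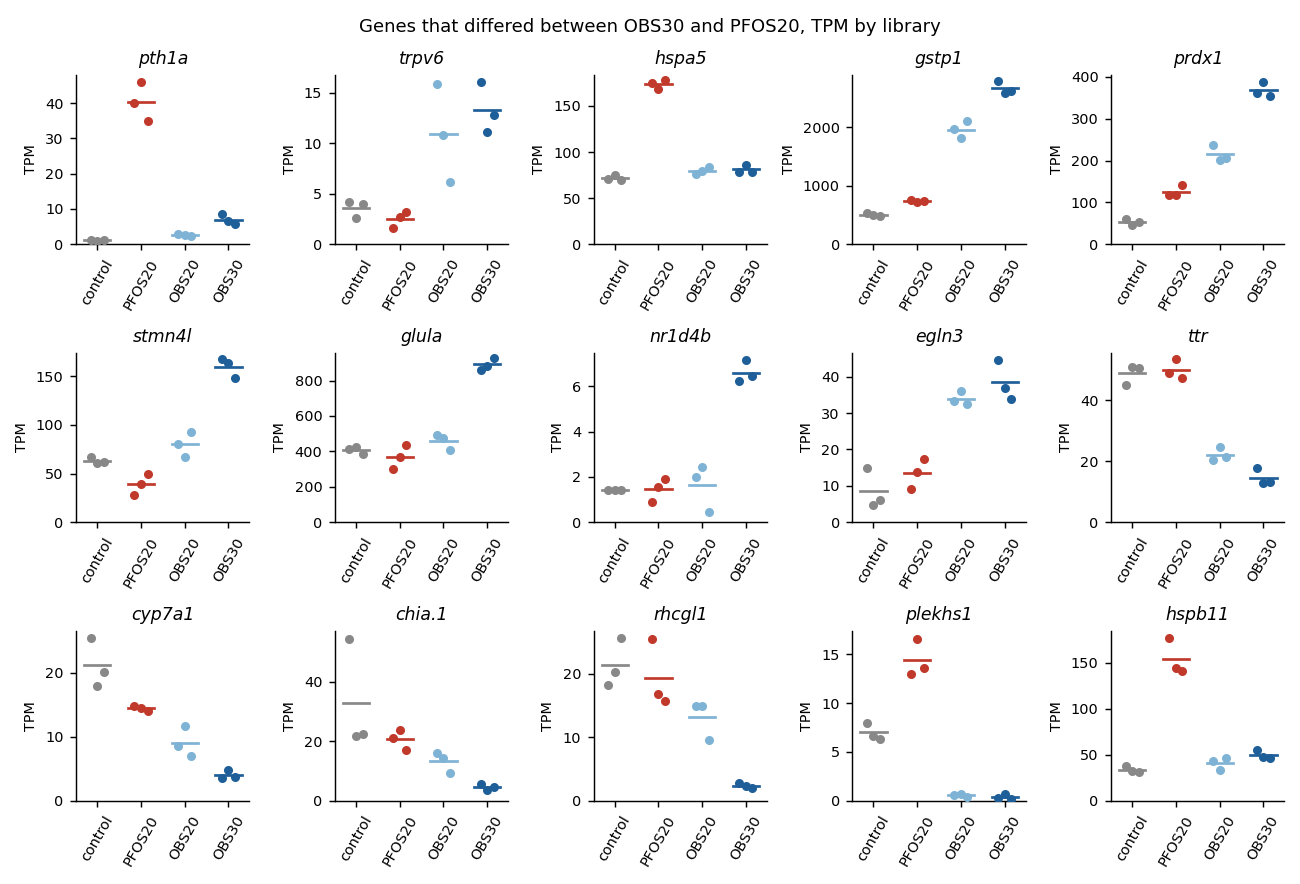
TPM (vertical axis) of 15 genes called between OBS30 and PFOS20 in each of the 12 libraries, by group, with a line at the group mean. Pth1a, hspa5, hspb11 and plekhs1 are highest in PFOS20, and gstp1, prdx1, stmn4l, glula and nr1d4b are highest in OBS30.

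Some genes lay on opposite sides of control in the 2 exposures. In the fit over all 12 libraries 21 of 30674 genes and loci (0.0685%) were called against control in opposite directions and also called between OBS30 and PFOS20, with 11 up in OBS30 and 10 down. Against control alone 8.42% were called in OBS30 and 18.3% in PFOS20. These contrasts share the control libraries, so each is given by its own values. Plekhs1, a pleckstrin homology domain gene, was 0.270, 0.630 and 0.180 TPM in OBS30, 13.01, 16.6 and 13.6 in PFOS20, 7.98, 6.62 and 6.37 in control and 0.540, 0.720 and 0.380 in OBS20. Both OBS groups lay far below control and PFOS20 above it. Its difference between OBS30 and PFOS20 was -3.51 ± 0.19 (adjusted p = 0.0011, called in every leave-out), with -2.56 in OBS30 and 0.94 in PFOS20 against control. Klf11a, a zinc finger transcription factor, was 60.6, 56.0 and 53.2 TPM in OBS30, 19.9, 17.03 and 21.9 in PFOS20 and 39.6, 34.1 and 39.4 in control (1.49 ± 0.12, adjusted p = 0.0039). Fth1a, a ferritin heavy chain, was 1270.0, 1368 and 1267 TPM in OBS30, 843, 856 and 858 in PFOS20 and 1093, 1099 and 1037 in control (0.61 ± 0.06, adjusted p = 0.0058). The count of 21 was 8, 7 and 6 without control replicate 2, 3 or 4, 47 without OBS20 replicate 3, 9 without OBS30 replicate 4 and 9 without PFOS20 replicate 3, and 14 to 27 without any one of the remaining libraries.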

How the data were processed

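Whole-larva poly(A) libraries were sequenced as pairs of reads, per the labels' protocols. The deposited values are TPM, which the authors scaled to the same total in each library over 44667 entries, 32520 Ensembl genes and 12147 loci assembled from reads. The submitters' processing notes name HISAT2, StringTie, RSEM and GRCz11, with versions and roles not given in the sources used here. No counts were used, so depth is unknown and precision comes from the spread between libraries. TPM is a share: a rise of some transcripts lowers the others.

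Libraries were grouped by labelled treatment. Values were log2(TPM + 1), filtered at 1 TPM in 3 or more of 6 libraries, and fitted with limma 3.58.1 under R 4.3.3 (eBayes, trend on, two-sided) with Benjamini-Hochberg adjustment over 28170 genes. The filter lets a gene pass through 1 group alone, so list counts cover the members that passed, not whole lists. A list member is a table entry, matched by symbol, and 37 of 1870 tested list genes stood in more than 1 list. No list test was run. Gene lists and the genes followed were chosen with earlier results of these data known.

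Named by rule were the 12 highest and 12 lowest called differences without overlap between groups and with at least 5 TPM in the higher group, up to 4 called members of each list in each direction, and 40 preset genes, of which 39 were tested. Lists with fewer than 3 called members gave up to 2 genes by mean TPM. The further genes hsp90aa1.1, fth1a, klf11a, her4.2, fhl5 and phactr3b are from the comparison of directions against control. Whether their calls between OBS30 and PFOS20 held with 1 library left out is not given here. On simulated TPM for OBS30 against PFOS20 with 28170 genes, 10.4% of 1.5-fold, 46.3% of 2-fold and 80.3% of 4-fold changes were called, with 3 unchanged genes called. The changes were set only in genes averaging about 5 TPM or more in PFOS20, and the noise was independent between genes. The rates therefore do not cover lower genes, or libraries that deviate in many genes together. Alternatives were a pseudocount of 0.1, a fit of unfiltered genes, a minimum mean of 5 TPM, quantile and median-of-ratios scaling, all 12 libraries, a replicate block and each library left out. Summing table entries that share an annotated protein, and every alternative for the directions against control, were added after seeing the data. Genomic positions and sequences were not used here.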

Additional observations from a re-analysis of the deposited data

Results flagged for a closer look

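The genes below were called against control in opposite directions in OBS30 and PFOS20, in the fit over all 12 libraries, and were called in the direct comparison of the groups. Values are OBS30 minus PFOS20 on log2(TPM + 1). Lower in OBS30 were plekhs1 (-3.51), ucp1 (-1.17) and hsp90aa1.1 (-1.06). Higher in OBS30 were stmn4l (2.03), klf11a (1.49), her4.2, a Notch target of neural progenitors (1.13), fhl5, a LIM domain gene (1.04), phactr3b (0.86), ptgdsb.2, a prostaglandin D synthase (0.86, called in every leave-out), and fth1a (0.61). The other 11 of the 21 entries carry clone names or are assembled loci. The contrasts share their control libraries. With 3 libraries in each group, no single library was tested for standing apart.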

How the results depend on the processing

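The higher and lower counts of 1771 and 791 became 672 and 430 with no filter, and the lower count became 1847 after quantile normalisation and 1718 after median-of-ratios scaling. Counts of 2-fold or more (719 and 273) became 340 higher with no filter, 173 lower at a mean of at least 5 TPM, 417 and 448 after quantile normalisation, and 399 and 440 after median-of-ratios scaling. With 1 library left out they ranged from 74 to 3287 and 112 to 763, and from 67 to 1522 and 97 to 280 at 2-fold. The 21 genes with opposite directions from control became 62 after quantile normalisation and 37 after median-of-ratios scaling, and 6 to 47 with 1 library left out.

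The groups share only the numbers 3 and 4, whose deviations from the group means correlated at -0.02 and 0.08, so a number was not taken as a pairing. A replicate block over 6 libraries leaves 1 residual degree of freedom and gave 0 higher and 0 lower calls in limma, at any fold (7228 at an unadjusted p below 0.05). Over 12 libraries the block gave 344 higher and 252 lower, 230 and 159 at 2-fold, and 9 opposite directions.

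When table entries with the same annotated protein were summed, atf4b went from -3.79 to 0.059 and lmod3, an actin filament gene of muscle, from 1.21 to -0.43 (adjusted p = 0.68 and 0.097). Reads of these genes are divided among entries. No other gene called and named by rule changed direction under an alternative run here. The cause of other changes was not tested. Low genes are limited by the unknown depth.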
